A study of Mus musculus with 8 samples.

Results

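Clustered histone genes are the members described here: every row of the gene list whose symbol is H1f1 to H1f5, or H2ac, H2bc, H3c or H4c followed only by digits. The rule takes 66 of 33696 genes, and it uses names alone and no measured value. It gives 5 linker histone genes (H1), 18 H2A, 18 H2B, 12 H3 and 13 H4 genes. RefSeq places 52 of them on mouse chromosome 13 and 10 on chromosome 3, and 4 symbols had no entry in that table. The counts are unique molecular identifiers (UMIs, tags that mark single captured mRNA molecules) from droplet single-cell RNA sequencing of tumour-bearing mouse liver.

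Liver tumours were started in male C57BL/6 mice of 8 to 10 weeks by hydrodynamic tail vein injection of plasmids that cut Trp53 with a guide RNA and insert c-Myc by SB13 transposase, and livers were taken 4 to 5 weeks later. Both groups carry floxed Nr4a1 (fl/fl), the gene of the nuclear receptor Nur77, and both carry the plasmid-driven tumours. Knockout mice also carry iCre at Ncr1, a gene of natural killer (NK) cells and related innate lymphocytes, and control mice have the wild-type Ncr1 gene, so Cre is driven in Ncr1-expressing cells. Each group has 3 mRNA libraries. Cells of 3 mice were pooled for control 3 and those of 2 mice for knockout 3. The labels of the other libraries name biological replicates without saying how many animals stand behind each.

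Histone proteins package DNA: 2 copies each of H2A, H2B, H3 and H4 form the nucleosome core, and H1 binds the linker DNA between cores. The clustered genes are the replication-dependent ones. Their transcription rises in S phase, when new DNA needs new nucleosomes, and their mRNAs normally end in a conserved stem-loop, bound by the protein Slbp, in place of a poly(A) tail. The libraries were made from poly(A) RNA by 3′ chemistry, so the levels below count what that chemistry captured, and they are not the total histone mRNA of a cell.

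The stem-loop is shown first because it sets the members apart from most genes these libraries measure. It was found in a GENCODE M21 coding transcript (build GRCm38) of 45 of the 66 members, and the other 21 had no match to the pattern searched, which says only that these letters are not in those annotated transcripts. The capitals mark the loop, the lower-case letters the paired stem, and the genes chosen are the leading stem-loop members by UMIs of the H1, H2A, H3 and H4 families and 1 variant stem.
H1f4: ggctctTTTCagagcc
H2ac8: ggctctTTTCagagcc
H3c3: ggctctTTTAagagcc
H4c4: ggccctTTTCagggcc
H4c11: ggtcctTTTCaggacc
The annotated transcript ran at least 100 bases past the stem-loop in 22 members, among them H1f4 with 1153 bases and H1f2 with 840 bases, and ended within 100 bases of it in 23 members, among them H2ac24 with 3 bases. In those 22 members lay 45.8% of all member UMIs, and in those 23 lay 27.7%.

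Promoters were taken from RefSeq (GRCm38.p6), 250 bases before to 50 bases after the start, for the 57 members found in that table. The motifs searched, on both strands, were CCAAT (known as a site of the factor NF-Y), TATAAA (a core promoter box), ATTTGCAT (the octamer of histone H2B promoters) and AAACACA (a box known from H1 promoters). CCAAT was present in 49 of 57 member promoters, against 37.9% of all 27025 promoters of the same length, and in 3 of the 11 H4 promoters. TATAAA was present in 34 members, against 14.2% of all promoters. ATTTGCAT was present in 12 members, 6 of H2A and 6 of H2B, against 1.75% of all promoters, and AAACACA in 8, of which 4 were among the 5 H1 genes, against 7.14%. A match is a description of letters, not a site of binding. Where the windows of a divergent pair coincide, a single site counts for both genes, so the member counts are not independent. How often this happened was not counted. In the H2ac8 window below, the TATAAA and ATTTGCAT matches are those of H2bc8 read on the other strand. Below are the promoters of H1f4, and of H2ac8 and H2bc8, a divergent pair whose 300-base windows largely coincide on opposite strands. Capitals mark the motifs on either strand, so that on the other strand CCAAT reads ATTGG, the box TATAAA reads TTTATA and the octamer reads ATGCAAAT.
H1f4: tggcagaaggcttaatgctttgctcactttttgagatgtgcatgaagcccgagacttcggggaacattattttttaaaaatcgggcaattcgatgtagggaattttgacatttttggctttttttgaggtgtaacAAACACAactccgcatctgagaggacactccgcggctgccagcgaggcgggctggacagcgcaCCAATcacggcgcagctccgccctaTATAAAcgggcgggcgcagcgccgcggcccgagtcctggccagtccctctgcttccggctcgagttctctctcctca
H2ac8: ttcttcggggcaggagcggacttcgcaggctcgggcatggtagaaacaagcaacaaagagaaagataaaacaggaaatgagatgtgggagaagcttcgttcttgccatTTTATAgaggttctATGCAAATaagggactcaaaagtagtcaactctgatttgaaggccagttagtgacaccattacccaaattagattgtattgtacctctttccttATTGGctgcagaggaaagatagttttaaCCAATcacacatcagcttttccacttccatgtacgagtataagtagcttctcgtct
H2bc8: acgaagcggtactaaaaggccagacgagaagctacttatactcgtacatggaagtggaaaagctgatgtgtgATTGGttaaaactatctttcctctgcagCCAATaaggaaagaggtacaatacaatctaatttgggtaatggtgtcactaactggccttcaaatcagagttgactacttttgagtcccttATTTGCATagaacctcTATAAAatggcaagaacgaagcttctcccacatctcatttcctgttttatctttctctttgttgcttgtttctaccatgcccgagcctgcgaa
The H2ac8 window is at chr13:23571171-23571470 (minus strand), H2bc8 at chr13:23571150-23571449 (plus strand) and H1f4 at chr13:23622509-23622808 (minus strand).

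Depth and identity limit what can be said of single genes. After filters 134 cells remained in knockout 2 and 547 in control 2, and the other libraries held 2639 to 9144. Median depths over all 6 libraries were 1924.5 (knockout 2) to 3868 UMIs per cell. Knockout 2 stands apart: 75.1% mitochondrial UMIs was its median before filtering, against 6.68% to 27.9% in the others. Any 2 libraries shared 0 to 15 cell barcodes. Members held 511559 of 212011344 UMIs, or 0.241%. Among the members, 60 had a UMI in all 6 libraries, and 4 had under 10 UMIs in all, of which H2bc1 and H2ac1 had 0. In 26 members at least 50% of the annotated transcript, read in windows of 91 bases, also occurs in another gene (92.3% for H2ac24, 0% for H1f5), so reads of these copies may be dropped or split, and levels of single copies are uncertain.

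The 21 members that each held at least 1% of member UMIs held 84.4% together. H2ac8, an H2A gene, had the most, 10.1%, followed by the linker histone genes H1f4 with 9.35%, and H1f5 with 8.11%, by the H2B gene H2bc4 with 9.34% and by H2ac24 with 9.20%. The leading H4 gene was H4c4 with 6.69% and the leading H3 gene H3c3 with 3.75%. H2A genes held 31.8%, H1 genes 24.3%, H2B genes 18.4%, H4 genes 14.3% and H3 genes 11.3% of member UMIs.

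Cells were named from marker UMIs as NK-like, T-like and so on, and separately called cycling from 2 lists of S phase and G2/M genes that hold no member. To make depth equal, each cell was thinned to 2000 UMIs and called cycling with at least 6 list UMIs. Cells under 2000 UMIs, 5662 of them, were left uncalled. Cycling cells were 1950 of the 14353 that could be called, with 39.0% of all UMIs and 70.5% of member UMIs. Near the threshold, 296 cells had 5 list UMIs and 269 had 6.

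Clustered histone genes were higher in cycling cells of each of the 3 classes in which this was tested. In T-like cells, summed member UMIs, scaled to 1000000 UMIs per sum (CPM), in cells not called cycling were 1040.1, 893 and 750.4 in control libraries 1, 2 and 3 and 921 and 838 in knockout libraries 1 and 3. In cycling T-like cells they were 8555 and 11352 in control libraries 1 and 3 and 11146 and 7956 in knockout libraries 1 and 3, while control 2 had 1 such cell and was not used. All cycling values lay above all others, and the cycling mean was 9752 CPM ± 1747 (SD, n = 4) against 889 CPM ± 107 (SD, n = 5). The edgeR quasi-likelihood test, with the library as a block, called 55 of 57 tested members higher and 0 lower at an adjusted p under 0.05, beside 26.6% of all 9469 genes called higher. The members' median log2 fold change was 3.58, and that of all genes was -0.03. A member with enough counts in the cycling sums alone also entered this test. In the knockout fit of T-like cells without cycling and shallow cells 39 members had enough counts.

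H2A and H3 genes had the largest changes in T-like cells and H1 genes the smallest. H2ac8 stood at 15.1, 18.2, 20.1 and 19.0 CPM in non-cycling cells of control libraries 1 and 3 and knockouts 1 and 3, and at 893, 1879, 1227 and 1074 CPM in their cycling cells. The groups were far apart, and the H2ac8 log2 fold change was 6.24 (SE 0.15, adjusted p = 8.1e-22). H3c3 went from 7.53, 3.87, 3.46 and 10.2 CPM to 622, 514, 833 and 367 CPM, a log2 change by 6.75 (SE 0.21, adjusted p = 6.5e-20). By contrast the linker gene H1f2 had levels of 144, 75.9, 119 and 92.1 CPM in non-cycling cells and 263, 162, 253 and 161 CPM in cycling cells, a log2 change by 1.00 (SE 0.10, adjusted p = 5.8e-09). H1f4 changed by 2.09 (SE 0.10) and H1f5 by 4.57 (SE 0.14). Per family the median log2 fold change was 4.96 for 13 H2A genes, 3.98 for 10 H3 genes, 3.68 for 16 H2B genes, 2.82 for 13 H4 genes and 2.41 for the 5 H1 genes. H2ac25 (0.44, SE 0.30, adjusted p = 0.23) and H4c16 (0.08, SE 0.26, adjusted p = 0.83) were the 2 members that did not pass.

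NK-like cells also held more in cycling cells. All 44 tested members passed as higher in the edgeR test (17.7% of all 6539 genes did), with a median log2 fold change of 4.00. The other 22 members had too few counts to be tested. In the knockout fit of NK-like cells without cycling and shallow cells only 12 members passed the count filter. Many of the 44 thus may have entered through the cycling sums, where they are high, and their count is not independent of that. Summed CPM in cycling NK-like cells were 17999 and 14079 in control libraries 1 and 3 and 18538 and 9346 in knockout libraries 1 and 3, against 718 to 1550.2 in non-cycling cells of the 6 libraries. The largest log2 fold changes were those of the H3 gene H3c8 (6.75, SE 0.55) and the H2A gene H2ac10 (6.70, SE 0.35), and the smallest among those tested was that of H1f2 (1.74, SE 0.17).

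Hepatocyte-like cells also held more in cycling cells. Non-cycling cells held 1569, 1525 and 1169 CPM in control libraries 1, 2 and 3 and 785 and 889.8 CPM in knockout libraries 1 and 3. Cycling cells held 2803, 3412 and 3156 CPM in the controls and 3258 and 2026 CPM in the knockouts. The values of cycling and other cells did not overlap, and the edgeR test called 52 of 60 members higher and 0 lower, beside 5.54% of all 12524 genes called higher, with a median log2 fold change of 1.45. H2ac8 changed by 1.86 (SE 0.15), H3c3 by 2.13 (SE 0.20) and H1f4 by 1.51 (SE 0.13). H2bc4 did not pass: it stood at 322, 443, 311, 240.1 and 283 CPM in non-cycling cells of control libraries 1, 2 and 3 and knockouts 1 and 3, and at 309.5, 182, 277, 278 and 244 CPM in cycling ones (log2 fold change -0.15, SE 0.09, adjusted p = 0.35). This class mixes cells of very different depth: 18.6% to 92.2% of its cells per library had at least 10000 UMIs. It was called from hepatocyte markers alone in tumour-bearing liver, so tumour and other hepatocytes were not told apart. Cycling and other cells may differ in that mix too. The part of either mixture in the result was not tested. When cells were called without thinning, 18 members of 24 tested were called, 17 higher and 1 lower, the lower one being H2bc4 at -1.18 (adjusted p = 0.010). Without the library block 31 members were called.

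The difference between T-like and hepatocyte-like cells was itself tested, as an interaction in the 4 libraries that held all 4 kinds of sums. The change was larger in T-like cells for 50 of 62 members and smaller for 0, beside 17.8% of all 13962 genes with a larger change. The members' median difference was 2.37 in log2 units, and that of all genes was 0.04. H2ac8 differed by 4.47 (SE 0.27, adjusted p = 3.6e-11) and H2bc4 by 2.49 (SE 0.18, adjusted p = 7.4e-10). H1f2, at 0.22 (SE 0.18, adjusted p = 0.44), did not pass. The lists that define cycling also differed less in hepatocyte-like cells: S list genes summed to 1066 to 1325 CPM in their non-cycling and 1475 to 1778 CPM in their cycling sums, against 388 to 630.4 and 2572 to 2692 CPM in T-like cells, and the part of this in the result was not tested. Most points in the plot of member changes in both classes lie above the line of equal change.

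**Figure D1:**
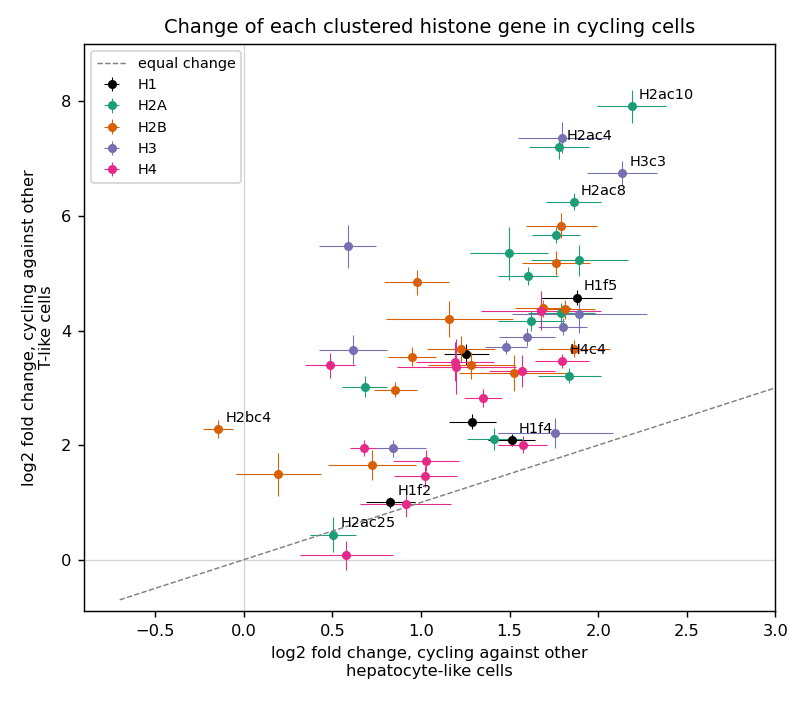
Each point is 1 clustered histone gene tested in both classes, with its log2 fold change of cycling against other cells in hepatocyte-like cells (x axis) and T-like cells (y axis), coloured by family, and with bars of 1 SE; the axes have different scales and the dashed line marks equal change. H2ac10 and H2ac8 lie far above the line, H1f2 near it, and H2bc4 passed the test in T-like cells and not in hepatocyte-like cells.

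Members by annotated transcript end were set side by side, as a description. In T-like cells the median log2 fold change was 4.37 over 20 tested members whose transcript ends within 100 bases of the stem-loop, 3.00 over 20 members whose transcript runs at least 100 bases past it, and 3.89 over 17 members with no match. In NK-like cells these medians were 4.22, 2.83 and 4.23, and in hepatocyte-like cells 1.68, 0.91 and 1.60. The members with long ends hold the H1 genes H1f2 and H1f4 and the 2 members that did not pass in T-like cells, H2ac25 and H4c16, whose annotated ends run 1643 and 2445 bases past the stem-loop. They also hold H2ac8, with 151 bases, and H4c4, with 770 bases. The ranges overlap widely: in T-like cells changes ran from 0.08 to 6.24 with long ends, the largest being H2ac8, and from 1.45 to 7.37 with short ends.

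Within cycling T-like cells, members were lowest in cells with a low G2/M share of list UMIs. These shares, and the S side below, are read from list UMIs and are not measured phases of the cycle. S list genes also stood above G2/M list genes in T-like cells not called cycling. Cells with a low G2/M share may thus include cells outside S phase, which was not tested. Cycling cells were split into 3 bands of equal width by the G2/M share of their list UMIs. In T-like cells the summed level of the low band was 4797, 4488, 6412 and 5906 CPM in control libraries 1 and 3 and knockouts 1 and 3. The middle band held 9475, 14449, 16246 and 7770.0 CPM, and the high band 9722, 13284, 9813 and 9756 CPM. The low band was the lowest of the 3 in each of the 4 libraries, while the middle and high bands overlapped. In hepatocyte-like cells the low, middle and high bands had means of 2581 ± 685, 3084 ± 662 and 2674 ± 496 CPM (SD, n = 4), which overlap. In NK-like cells only controls 1 and 3 held enough cells: the low bands had 8675 and 7431 CPM, the middle bands 21086 and 21461 CPM and the high bands 20306.5 and 15472 CPM.

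**Figure D2:**
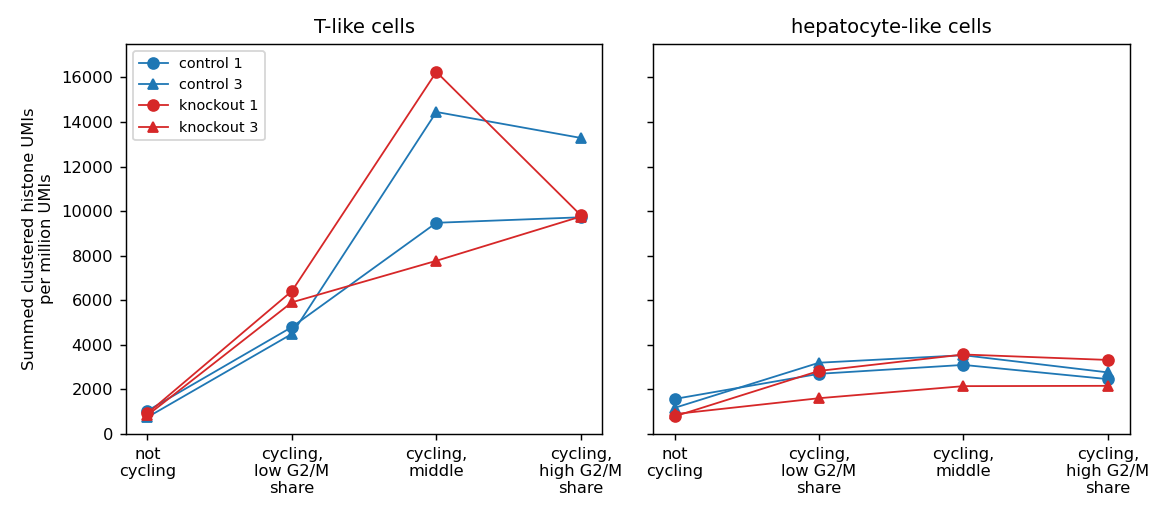
Summed clustered histone level in CPM (y axis) in cells not called cycling and in 3 bands of cycling cells by the G2/M share of their list UMIs (x axis), for T-like and hepatocyte-like cells; each line is 1 library. In T-like cells each line rises from the low to the middle band, from 4488 to 6412 CPM up to 7770.0 to 16246 CPM, and in hepatocyte-like cells all points stay at or under 3564 CPM.

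Cycling cells with more S than G2/M list UMIs (the S side) were tested against those with more G2/M list UMIs, over all classes together. Cells with equal numbers were left out. Cycling cells differed by class in mean summed level, at 14990 CPM in NK-like, 9752 in T-like and 2931 in hepatocyte-like cells. The sides may hold the classes in different shares, and the part of that mix in the result was not tested. Of 62 members, 0 were higher on the S side and 24 were lower in the edgeR test, beside 2.98% of all 13443 genes called lower, and the members' median log2 difference was -0.49. H4c4 fell by 0.68 (SE 0.08, adjusted p = 0.0013), H2ac4 by 0.71 (SE 0.10, adjusted p = 0.0044) and H3c3 by 0.65 (SE 0.10, adjusted p = 0.0063) on the log2 scale, S side against G2/M side. H1f5 (-0.15, SE 0.11) and H2ac8 (-0.34, SE 0.09, adjusted p = 0.084) did not pass. In T-like cells alone 26 of 51 members were lower (5.63% of all genes) and in hepatocyte-like cells alone 1 of 60 (1.47% of all genes). A test of that difference called 4 of 60 members, H2bc27, H3c7, H2bc4 and H2bc6, named here as all that passed, with 0.785% of all genes called in that direction, and leaving out control 1, control 3 or knockout 1 gave 1, 0 and 18. Without the library block 0 of the 24 passed, and without control 3 or knockout 3 the count was 10 and 13.

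Genes that make and process histone mRNA, and those that carry histones to DNA, were read from lists, beside all genes, of which 26.6% were higher in cycling T-like, 17.7% in cycling NK-like and 5.54% in cycling hepatocyte-like cells, and 1.36% higher and 2.98% lower on the S side. Of the list of transcription and 3′ end processing, 7 of 15 tested genes were higher in cycling T-like cells and 0 lower, with Slbp, the stem-loop binding protein, changed by 1.60 (SE 0.11, adjusted p = 1.1e-12) and Eri1, a nuclease of the histone mRNA end, by 1.10 (SE 0.13, adjusted p = 1.1e-07). In hepatocyte-like cells 3 of 16 were higher. The S side values that follow come from sums over all classes, whose mix may differ between sides, and its part was not tested. On the S side of cycling cells of all classes together, 0 members and 2 of 16 genes of this list were higher in the edgeR test. These were Slbp by 0.60 (SE 0.06, adjusted p = 0.00044) and Casp8ap2, a factor of histone transcription, by 0.53 (SE 0.10, adjusted p = 0.017). Of 18 histone chaperones, 12 were higher in cycling T-like cells, led by Asf1b at 4.21 (SE 0.17) and the replication chaperone subunit Chaf1a at 3.49 (SE 0.22), 11 of 17 in NK-like cells and 7 of 18 in hepatocyte-like cells. On the S side 4 of 18 chaperones were higher, with Chaf1b, another subunit of that complex, at 1.06 (SE 0.11) and Chaf1a at 0.59 (SE 0.07). Of the replacement histones, which lie outside the rule, 7 of 9 tested were higher in cycling T-like cells, with H2ax at 3.49 (SE 0.12) and H2az1 at 2.32 (SE 0.09), and 4 of 10 were lower on the S side, with Cenpa, the centromere histone, falling by 1.48 (SE 0.07) and H2ax by 1.18 (SE 0.12).

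Levels in cells not called cycling differed between classes, and basophil- and mast-like cells were the highest. Their summed levels were 8641, 1543 and 4325 CPM in control libraries 1, 2 and 3 and 5069.9 and 5847 CPM in knockout libraries 1 and 3, a mean of 5085 CPM ± 2566 (SD, n = 5). The control 2 value, from 20 cells, is the lowest, and the other 4 lie above every value of every other class. Monocyte-like cells followed with 1980.2 ± 649.9 CPM (SD, n = 4), then dendritic-like with 1353 ± 959.7 (n = 4), macrophage-like with 1193 ± 541 (n = 4), hepatocyte-like with 1187 ± 357 (n = 5), neutrophil-like with 1174 ± 409 (n = 5), NK-like with 1065 ± 309 (n = 6), T-like with 889 ± 107 (n = 5), B-like with 659 ± 277 (n = 5), plasmacytoid dendritic-like with 603 ± 78.8 (n = 3) and endothelial-like cells with 412 ± 183 CPM (n = 5). Each class in this order overlaps the next in its range over libraries. Over all cells of a class, cycling and shallow ones included, NK-like cells stood highest of the classes with at least 3 libraries, at 6241 ± 2669 CPM (SD, n = 6), and basophil- and mast-like cells were at 5862 ± 3338 CPM (n = 5).

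**Figure D3:**
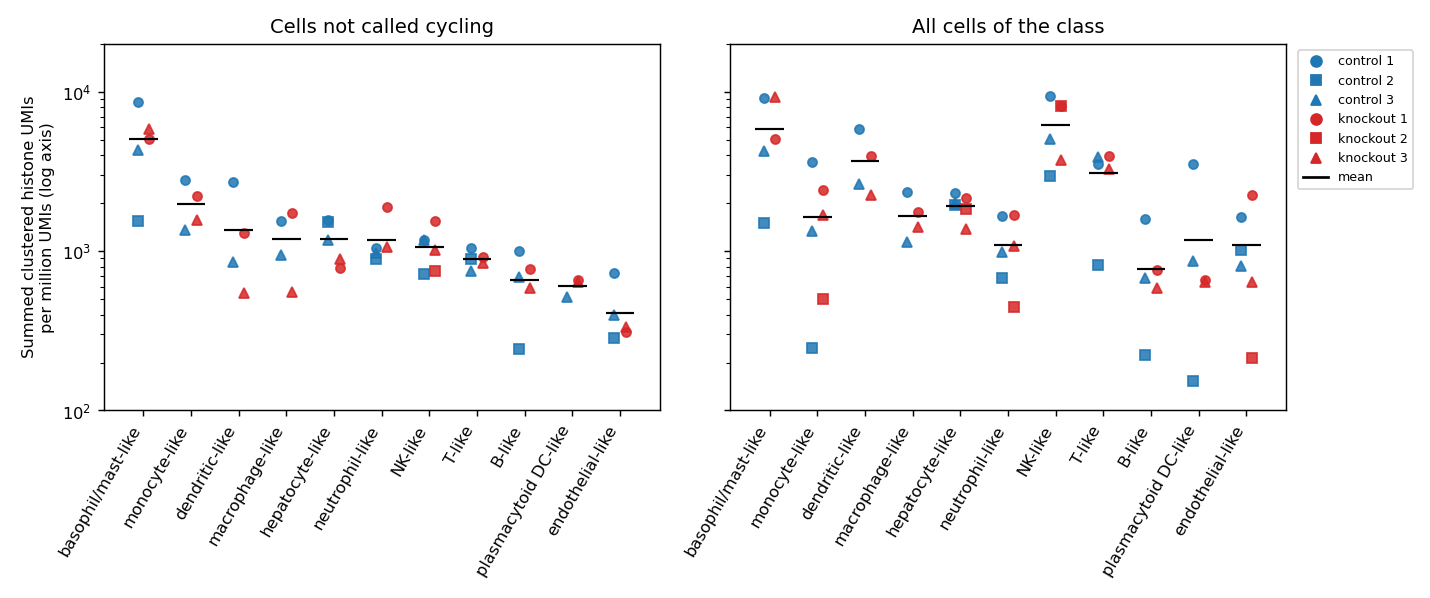
Summed clustered histone level in CPM (log axis) by cell class, in cells not called cycling (left) and in all cells (right); each point is 1 library with at least 10 cells of the class, and the bar is the mean. On the left, 4 of 5 basophil- and mast-like points lie above every other point, and on the right NK-like cells reach 9435 CPM.

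The class test compared each of 11 classes with the mean of the other classes, with libraries as a block. In cells not called cycling, 33 of 35 tested members were higher in basophil- and mast-like cells and 0 lower, beside 17.9% of all 10528 genes called higher, with a median log2 difference of 2.65 against -0.19 for all genes. H1f2 stood at 899, 250.3 and 537 CPM in control libraries 1, 2 and 3 and 495 and 646 CPM in knockout libraries 1 and 3, against 65.7 to 144 CPM in T-like cells, and its difference was 2.57 (SE 0.22, adjusted p = 5.5e-15). H1f4 held 1155, 236 and 557 CPM in the controls and 606 and 537 CPM in the knockouts, a difference of 2.03 (SE 0.20, adjusted p = 2.6e-12). H2ac8 held 511, 41.7 and 128 CPM in the controls and 229 and 109.7 CPM in the knockouts, a difference of 2.83 (SE 0.34, adjusted p = 7.6e-10). For each of these 3 genes the lowest basophil- and mast-like value lay above the highest T-like value.

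The lists that define cycling were low in these cells. In basophil- and mast-like cells not called cycling, S list genes summed to 160 to 362 CPM and G2/M list genes to 41.7 to 284 CPM, against 388 to 630.4 and 91.9 to 192 CPM in non-cycling T-like cells and 2572 to 2692 and 3803 to 4463 CPM in cycling T-like cells. All 6 tested H3 genes were called higher in this class. Among them H3c3, which was among the genes changed most in cycling lymphocytes, was at 0 UMIs in 3 of the 5 basophil- and mast-like sums. It was at 114 and 8.02 CPM in control libraries 1 and 3, and without control 3 its edgeR call was lost (log2 difference 1.77, adjusted p = 0.089). In sums this shallow 0 UMIs cannot be told from a few CPM. H2ac8, also changed much in cycling lymphocytes, differed by 2.42 to 2.94 with any 1 library left out. Per cell, the median over cells was 10.1 to 38.5 member UMIs per 10000 UMIs in basophil- and mast-like cells, by library. These medians overlap those of monocyte-like (7.15 to 14.8), macrophage-like (3.79 to 15.7) and neutrophil-like cells (6.54 to 10.1), and lie above those of T-like (2.44 to 6.67) and B-like cells (0 to 4.89). The 90th percentile over basophil- and mast-like cells was 46.7 to 182, so that part of the cells held far more than the median cell. The class holds 30, 20, 50, 32 and 44 such cells in control libraries 1, 2 and 3 and knockouts 1 and 3. With only the cells that had a UMI of Mcpt8, a basophil protease gene, 33 of 35 members were again higher, with a median of 2.95 (13.7% of all genes called higher), in 4 libraries of 4665 to 10674 CPM. Of replacement histones, 4 of 9 were higher in this class, H3f3b by 1.72 (SE 0.13) and the linker histone H1f0 by 2.30 (SE 0.25), where 17.9% of all genes were higher and 12.3% lower. Of 16 histone chaperones 2 were higher and 5 lower, among them Ssrp1 (-1.31, SE 0.33) and Hjurp (-2.33, SE 0.60), and of the 12 genes of transcription and 3′ processing 0 were higher and 1, Cstf2, lower.

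Monocyte-like cells had 24 of 35 members higher and 0 lower, beside 28.3% of all genes called higher. Of these, 23 were also among the 33 of 35 called in basophil- and mast-like cells. As nearly all tested members were called there, that overlap says nothing more of the 2 classes. H1f4 held 612 and 274 CPM in control libraries 1 and 3 and 479.6 and 368 CPM in knockout libraries 1 and 3 (difference 1.36, SE 0.20, adjusted p = 9.0e-08). Endothelial-like cells had 31 of 35 members lower and 0 higher, beside 22.7% of all genes called lower, with a median of -1.81. B-like cells had 9 lower and 0 higher (20.6% of genes called lower), and dendritic-like cells 11 higher and 0 lower (24.2% of genes called higher). T-like cells had 5 higher and 6 lower, with 27.3% and 17.0% of all genes called, and NK-like cells 5 higher and 2 lower, with 24.1% and 14.8%. The small counts rest on single libraries: without control 1 B-like cells had 4 calls, without control 3 T-like cells had 4, and without knockout 3 T-like cells had 9, all lower. Without the library block T-like cells had 7 and B-like cells 2. Over all cells, cycling ones included, these counts were 38 of 47 higher in T-like cells (28% of all genes) and 41 of 47 in NK-like cells (26.6%).

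Single members departed from the order of the sums. H2bc4 was high in hepatocyte-like cells not called cycling, at 240.1 to 443 CPM over 5 libraries, against 20.8 to 30.1 CPM in T-like cells (class differences 2.23, SE 0.19, and -2.11, SE 0.29). Neutrophil-like cells had 5 of 35 members higher and 6 lower, beside 22.7% and 23.4% of all genes called, so both shares of members lay under those of all genes. The higher ones were the H4 gene H4c9 (80.1 to 142 CPM, difference 2.56, SE 0.24), the linker gene H1f2 (202 to 557 CPM, 1.92, SE 0.24), H2bc4 (128 to 318 CPM, 1.85, SE 0.26), H2bc6 (20.3 to 90.3 CPM, 1.65, SE 0.28) and the H2A gene H2ac18 (1.49, SE 0.45). The lower ones were H2ac20 (-3.94, SE 0.97), H2bc11 (-2.96, SE 1.18), H3c1 (-2.90, SE 1.08), H1f3 (-2.56, SE 0.76), H1f5 (-1.84, SE 0.68) and H4c4 (-1.07, SE 0.36). H1f3 had 0 to 2 UMIs in each of the 5 sums. These sums held 16 to 119 cells, so the larger negative differences may rest on few UMIs. H3c3 was higher in non-cycling hepatocyte-like (3.02, SE 0.32) and dendritic-like cells (3.25, SE 0.44). H2ac25 was higher in plasmacytoid dendritic-like cells by 1.87 (SE 0.29, adjusted p = 6.0e-07) and lower in T-like cells by a difference of -1.32 (SE 0.23), and H4c16 was higher in plasmacytoid dendritic-like cells by 1.89 (SE 0.44) and in T-like cells by 1.09 (SE 0.26).

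**Figure D4:**
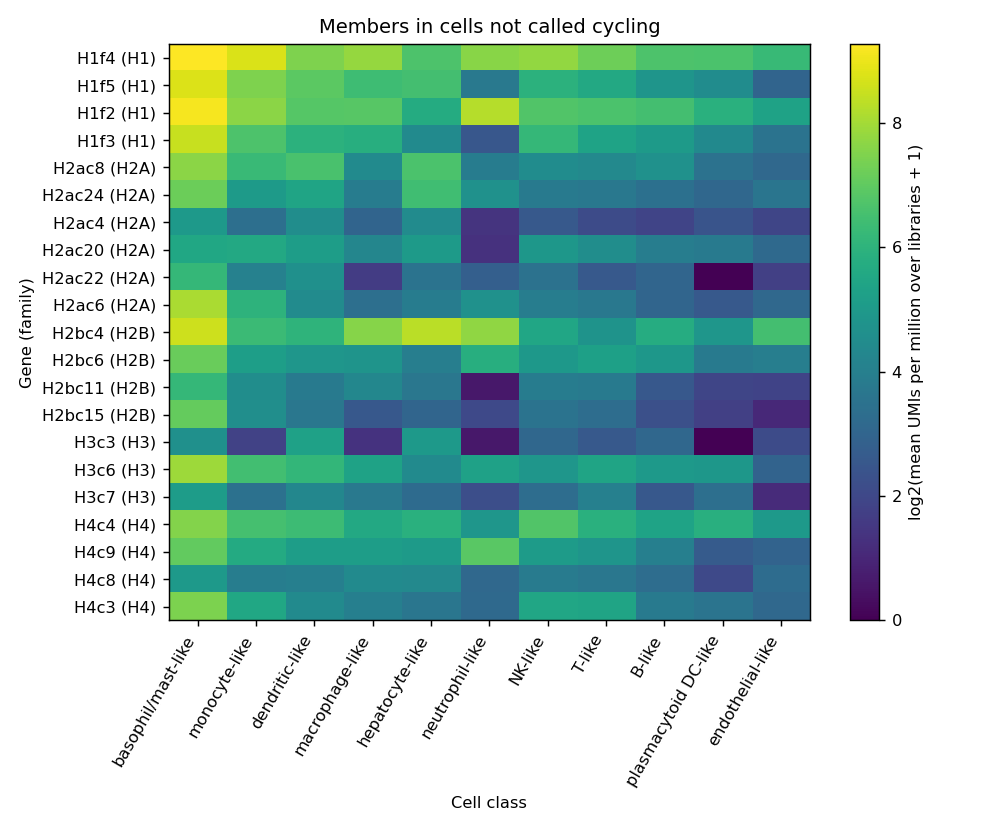
Mean level over libraries, as log2(CPM + 1), of the 21 members with at least 1% of member UMIs (rows, by family) in cells not called cycling of 11 classes (columns, in falling order of the summed level). The linker genes H1f4 and H1f2 are brightest in basophil- and mast-like cells, H2bc4 stands out in hepatocyte-like cells, and H1f2, H2bc4 and H4c9 in neutrophil-like cells.

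The knockout question was asked last, in each class with enough cells. The targeted gene did not separate the groups in NK-like cells: Nr4a1 stood at 81.4, 32.4 and 46.2 CPM in control libraries 1, 2 and 3 and at 147, 0 and 69.8 CPM in knockout libraries 1, 2 and 3. The 0 in knockout 2 comes from 31 cells, where 3 UMIs would be 22.3 CPM. A 3′ tag outside the floxed part does not report the deletion, and where these tags lie relative to it was not analysed here, so Nr4a1 checks nothing about the labels. Ncr1, the gene that carries Cre, stood at 746, 671 and 644 CPM in control libraries and 180, 581 and 282 CPM in knockout libraries.

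No member passed the test between knockout and control libraries in NK-like cells. Of 46 tested members 0 passed in the edgeR test, as did 0 of all 7276 genes, so 0% of genes were called in either direction, and 2 members had an unadjusted p under 0.05. DESeq2 and the fit with the replicate block also called 0 members (with the block, 0.0412% of genes passed as higher and 0.0275% as lower). H1f4 held 916, 337 and 401 CPM in control libraries 1, 2 and 3 and 955, 596 and 417 CPM in knockout libraries, so that the groups overlap (log2 fold change 0.25, SE 0.37, adjusted p = 1.00). H2ac8 held 903, 271 and 512 CPM in control libraries and 791, 782 and 345 CPM in knockout libraries (0.14, SE 0.39). H3c3 held 685, 139 and 173 CPM in control libraries and 527, 372 and 118 CPM in knockout libraries (-0.01, SE 0.55). Libraries numbered 1 were higher than those numbered 3 in both groups for each of these genes. The share of callable NK-like cells that were cycling was 27.4%, 8.24% and 13% in control libraries and 20.3%, 25% and 16.1% in knockout libraries, and its part in these values was not tested. The members' median log2 fold change was 0.02. The sizes that would go unseen are large: in simulated counts of this comparison 39% of genes changed 2-fold were recovered and 97.0% of those changed 4-fold. That simulation gave all genes the same set spread and no effect shared by same-numbered libraries, and it changed only well-counted genes. For members with a larger spread or fewer counts the recovery would be lower.

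**Figure D5:**
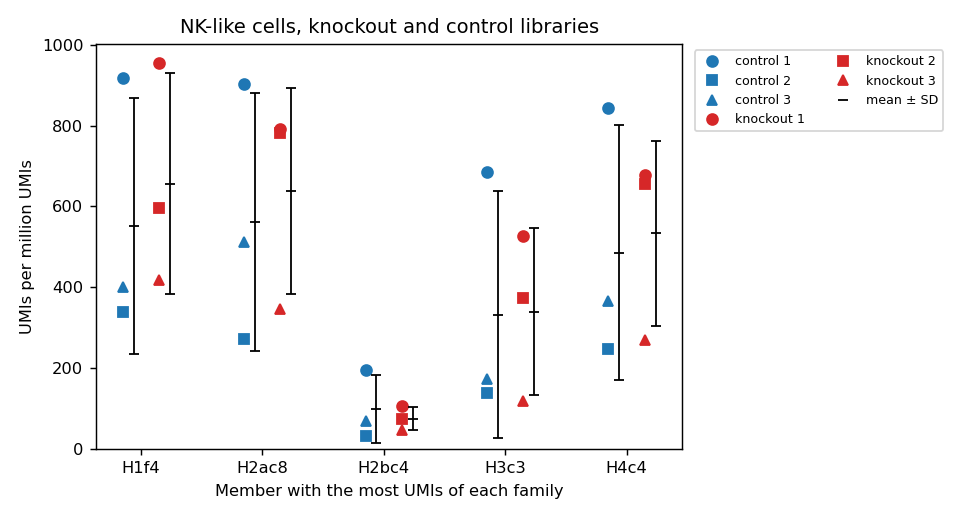
Level in CPM in NK-like cells (y axis) of the member with the most UMIs in each family (x axis), with 1 point per library and the mean ± SD of 3 control and 3 knockout libraries. Control and knockout points overlap for all 5 genes.

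Other classes gave 0 called members as well: 0 of 27 tested in monocyte-like, 0 of 4 in neutrophil-like, 0 of 10 in endothelial-like and 0 of 61 in hepatocyte-like cells, each beside 0% of all genes called, with 0, 0, 0 and 2 members at an unadjusted p under 0.05. In hepatocyte-like cells 7 of 61 log2 fold changes were above 0, the median was -0.26, and that of all genes was -0.01. Without cycling and shallow cells 1 of 55 was above 0, the median was -0.72, 0 passed, and 11 had an unadjusted p under 0.05, as did 167 of 12850 genes. In those cells the summed levels given above, 785 and 889.8 CPM in knockout libraries, lay below all 3 control values, 1169 to 1569 CPM. Tumour and other hepatocytes were not told apart in these sums, and the part of their mix was not tested. T-like, B-like and macrophage-like cells had too few cells in libraries numbered 2 and were compared over 2 libraries a group, where 0 of 58, 0 of 30 and 0 of 11 members passed, beside 0% of all genes, with 3, 5 and 0 at an unadjusted p under 0.05. B-like H2ac8 stood at 90.3 and 28.5 CPM in control libraries 1 and 3 and 19.7 and 17.9 CPM in knockout libraries 1 and 3. With the replicate number as a block, 4 of the 30 members were lower in B-like cells of knockout libraries (0.582% of all genes), the H2A genes H2ac8 (-1.40, SE 0.27, adjusted p = 7.9e-05), H2ac24 (-1.73, SE 0.32) and H2ac4 (-3.22, SE 0.65) and the linker gene H1f5 (-0.995, SE 0.26). The block called 0 members in the other classes, beside 0.611% of genes higher and 0.766% lower in T-like, 0.102% higher and 0.0872% lower in monocyte-like, 0.0844% higher and 0.19% lower in macrophage-like, 0.0307% lower in endothelial-like and 0.00744% lower in hepatocyte-like cells. Without cycling and shallow cells, endothelial-like cells had 0 members and 0.0147% of genes called higher. In B-like cells 0 of 26 members passed without cycling and shallow cells, and without control 1, control 3 or knockout 3 the unblocked count of members called lower was 2, 8 and 3, beside 0.791%, 0.25% and 1.57% of all genes. Each of these fits sets 1 library against 2 and takes the lone library to vary like the others. Of callable B-like cells, 2.56% and 0.108% were cycling in control libraries 1 and 3, against 0.212% and 0.201% in knockout libraries 1 and 3.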

How the data were processed

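Single cells of tumour-bearing mouse liver were measured as UMI counts per gene and cell in 6 mRNA libraries. The authors made these counts with Cell Ranger 7.0.1 or 9.0.1, per the file headers, and the submitters' processing notes name Cell Ranger 9.0.1 and the GRCm39 genome. The deposited counts are raw, with 3′ chemistry on poly(A) RNA per the labels' protocols. For 4 libraries only barcodes called as cells were deposited, and for those numbered 3 all barcodes were, so there cells were separated from free RNA by comparison with barcodes of at most 100 UMIs (false discovery rate 0.001).

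The filters on cells were 500 UMIs and 300 genes as minimum and 20% mitochondrial UMIs as maximum, and the cells with the highest doublet scores (scanpy 1.11.5, a share that grew with the number of cells) were removed. Classes came from marker UMIs (at least 2 immune or 3 hepatocyte markers). Cells are not replicates: counts were summed per library and class where at least 10 cells were present, and tested across all genes with edgeR 4.0.16 in R 4.3.3 (TMM scaling, low-count filter, quasi-likelihood test, Benjamini-Hochberg threshold 0.05). The low-count filter keeps a gene with enough counts in as many sums as the smallest group holds. A gene may thus be tested only because of a group where it is high. Comparisons between cells of the same libraries used the library as a block. CPM are counts scaled to 1000000 UMIs per sum, and ± gives the SD over libraries. Alternatives were DESeq2 1.42.0, no filter, no or an added block, each library left out, other cell filters and other rules for cycling. The T-, B- and macrophage-like knockout fits, both tests between T-like and hepatocyte-like cells, and the fits without cycling cells were added after the data were seen. So were the S side fits within T-like or hepatocyte-like cells alone, the 3 bands of cycling cells and the fit with an Mcpt8 UMI.

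Same-numbered control and knockout libraries deviated together (15 correlations of 0.18 to 0.45 over classes and numbers), so a fit with the replicate number as a block was also made. The fits were tested on simulated data: in the cycling comparison of T-like cells, with 9256 genes, 60% of genes changed 2-fold and 100% of those changed 4-fold were recovered, and the knockout comparison of NK-like cells was simulated with 7037 genes. In both, all genes had the same set spread, which was not estimated from these data. The members and lists were chosen with earlier results of these data known. Named genes were members with at least 1% of the set's UMIs, the leading member of each family, members that passed, and of each list the 2 genes with the smallest p; others named were chosen after their values were seen. Mice within the pooled libraries were not compared.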

Additional observations from a re-analysis of the deposited data

Results flagged for a closer look

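The change of members between cycling and other cells differed between T-like and hepatocyte-like cells by a test of that difference (edgeR, 4 libraries): 50 members had a larger change in T-like cells. Among the leading member of each family, the difference in log2 units was 0.66 for the linker gene H1f4, 4.47 for the H2A gene H2ac8, 2.49 for the H2B gene H2bc4, 4.73 for the H3 gene H3c3 and 1.79 for the H4 gene H4c4. The same kind of test on the S side against the G2/M side of cycling cells called 4 members, with H2bc4 at -0.94, lower on the S side in T-like cells relative to hepatocyte-like cells. Cell depth and list levels differ between these classes, and tumour and other hepatocytes were not told apart. The part of these in the differences was not tested. No group had the 4 libraries that a check for single outlying libraries needs.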

How the results depend on the processing

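Of 306 recounts of called members under an alternative, 277 equalled the reported count or lay within 1.5 times it, and 29 did not. The knockout comparisons are among them, where the reported count was 0 and another 0 was taken as equal. Higher and lower calls were added, and some classes entered both singly and in the sum over classes. In cycling T-like cells 53 to 56 members were called with any 1 library left out, in NK-like cells 39 to 51, in hepatocyte-like cells 44 to 52, and in the test between T-like and hepatocyte-like cells 42 to 51. In basophil- and mast-like cells not called cycling the range was 27 to 34. Without the library block, which pairs the sums of a library, hepatocyte-like cells had 31 called members and the S side comparison 0. Hepatocyte-like cells called cycling without thinning had 18. The S side comparison called 10 to 30 members with 1 library left out and 1 in hepatocyte-like cells only, where H2ac8 was at 0.014 and H2bc4 at 0.10. The S side difference between T-like and hepatocyte-like cells called 12 members without a filter and 0 to 18 with a library left out, and H1f4 then ranged from -0.48 to 0.18 and H4c4 from -0.52 to 0.29. Summed over classes, 327 calls became 173 without cycling and shallow cells. In the knockout comparison of 2 libraries a group, the unfiltered fit called 1 member in T-like and 4 in B-like cells, the replicate block 4 in B-like cells, and leaving out a library 0 to 8; the block changed no other knockout count. In NK-like cells the knockout difference turned sign for H2ac8 without the libraries numbered 2 (-0.32) and without cycling and shallow cells (-0.77), for H2bc4 without those cells (0.51), for H3c3 with DESeq2 (0.014) and without doublet removal (0.011), and for H4c4 without the libraries numbered 2 (-0.35). With 1 library left out H1f4 ranged from -0.18 to 0.82, H2ac8 from -0.20 to 0.64, H2bc4 from -0.94 to 0.41, H3c3 from -0.64 to 1.07 and H4c4 from -0.23 to 0.74. Where not stated, the cause was not tested. Shallow sums limit the small classes: a library with few cells cannot show a member at a few CPM.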

Other observations

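Libraries differed in which H2A copy they counted. In cycling T-like cells H2ac24 held 31.1% of H2A member UMIs in control 3, against 14.3% in control 1, 12.8% in knockout 1 and 21.6% in knockout 3. In cycling NK-like cells the shares were 33.6% in control 3, 15.1% in control 1, 9.72% in knockout 1 and 20.3% in knockout 3. The libraries numbered 3 were higher in both classes, and 92.3% of the windows of the H2ac24 transcript also occur in another gene.

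A few members had an unadjusted p under 0.05 in the main edgeR fits of the knockout comparison, and none passed adjustment in those fits. In B-like cells there were 5 such members, and the edgeR fit with the replicate block called 4 members lower, as given above. Those named here are from the main fits of other classes. The H4 gene H4c18 was at -0.96 in NK-like, -0.56 in T-like and -1.09 in hepatocyte-like cells, and H4c17 at -1.03 in hepatocyte-like cells. The H2B gene H2bc24 was at -1.41 in NK-like and -0.99 in T-like cells. Of H4c18, 81.2% of windows occur in another gene, and of H2bc24 99.8%.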
